A study of Homo sapiens and synthetic construct with 14 samples.

Results

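Pairs of an enhancer and a second DNA element were measured in the benchmark library of an MPRAduo reporter assay, in the first of its runs, in which the element lies before the enhancer (the labels call this order SE). The pairs described are all lines of that run's count table that name an enhancer and an element other than the star placeholder. There were 25712 of them among 27169 lines of the table and 616613 lines of all tables of the series. They join 1412 elements to 21 enhancers, named En01 to En21. The elements carry class names in the table: 85 REST, 129 YY1, 257 GFI1, 92 CTCF, 128 CTCF_TAD and 67 positive elements, 650 random elements, and 4 elements named singly (cHS4, Smirnov_C3, Smirnov_C6a and Smirnov_C8). MPRAduo is a massively parallel reporter assay, in which many plasmids, each with its own barcodes, are delivered to cells together and read by counting barcodes. The recipient cells were GM12878, a lymphoblastoid B-cell line and so a single cell line. They were electroporated with the plasmid pool and left for 24 hours. GFP messenger RNA, the transcript of the reporter, was then drawn out with beads and reverse transcribed, and the plasmid pool itself was counted as the input. No untreated cells enter the comparison, and the random elements beside the same enhancer are the control.

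The table has 4 columns headed plmd and 4 headed cDNA. The direction used here is plmd-headed over cDNA-headed, because the authors' own deposited log2 fold change runs that way: it correlated at 0.993 with the log2 ratio of the plmd-headed to the cDNA-headed means over 23473 pairs. In that direction the plmd-headed columns stand for the RNA side. Read as the headings stand, every sign below would turn. The 4 plmd-headed libraries correlated with each other at 0.804 to 0.838 across pairs on the log scale, and the 4 cDNA-headed libraries at 0.968 to 0.971. The number of barcodes given for a pair correlated at 0.896 to 0.927 with the plmd-headed counts and at 0.803 to 0.807 with the cDNA-headed counts. A deposited column named plmean equalled the mean of the plmd-headed columns, with a largest difference of 0, and its name thus goes with the headings as they stand. Pairs without a count numbered 54 to 128 in the plmd-headed libraries and 1 to 2 in the cDNA-headed ones. Which heading is the RNA was not tested beyond these values.

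REST is a zinc finger repressor that keeps neuronal genes silent outside the nervous system, and the DNA site it binds is called RE1. A reporter with an enhancer allows such repression to be read as a loss of the enhancer's output. YY1, also of the zinc finger type, acts as an activator or as a repressor and often binds at promoters. GFI1 is a repressor of transcription that acts in blood cell development. CTCF binds insulators and the borders of chromatin domains, and cHS4 is a chicken beta-globin insulator. The labels do not explain the class names CTCF_TAD, positive, random and Smirnov.

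Elements named by a window are 200 bases long, and their names carry no genome build. Against hg38, the only genome at hand, the coordinates held on some chromosomes and not on others. A match to the 21-letter RE1 consensus, with at most 5 mismatches on either strand, lay within 15 bases of the window's centre in 15 of 17 REST windows on chromosome 9, 14 of 18 on chromosome 19, 8 of 14 on chromosome 18 and 3 of 4 on chromosome 11. On chromosome 5 this was so in 0 of 22, and in 15 of the 22 a match lay 90 to 120 bases before the centre. On chromosomes 19, 9 and 5 the YY1 windows behaved alike. An 11-letter YY1 match (at most 1 mismatch) lay at the centre in 20 of 27 on chromosome 19 and 14 of 20 on chromosome 9. It did so in 0 of 24 on chromosome 5, where 15 held one 90 to 120 bases before the centre. Chromosomes 18 and 11 had a centred match in 5 of 19 and 0 of 3 YY1 windows. The remaining chromosomes had 1 in 0 of 10 REST and 1 of 34 YY1 windows. In addition, 2 windows each of the GFI1, CTCF and positive classes end past an hg38 chromosome. The names therefore do not follow hg38, so no sequence, gene or base composition is given for any window, and coordinates are printed as named.

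The libraries held 26879852 to 74076094 counts. A pair had a median of 81 barcodes, with a range from 10 to 6680. The effect of a pair is the log2 ratio of plmd-headed to cDNA-headed counts after each library was scaled on the summed counts of the random elements beside the same enhancer. A negative effect means that the pair was lower than that sum predicts. Under this scaling the median random element lay at −0.17, so class medians are also given as differences from the median random element. A second scaling, on the median log ratio of the random elements, shifted the median of all elements in the limma fit from −0.25 to −0.03. In that fit the median random element moved from −0.28 to −0.05. Limma effects of single elements are printed without subtracting it. For the windowed classes, counts of called pairs are given under both scalings, and calls of single elements and pairs under the first unless stated. The enhancers without an element ran from −0.91 (En01) to 3.70 (En20) in log2 counts scaled by library total, plmd-headed minus cDNA-headed, and rose broadly with the enhancer's number. En16 had 91 pairs, and the other enhancers had 900 to 1408. The submitters' design text gives 4 biological replicates. All p-values measure the spread within the 4 plmd-headed and the 4 cDNA-headed libraries, fitted as a single spread, although the plmd-headed libraries varied more. As 1 of these sets counts the plasmid pool, the p-values do not measure the spread between cell cultures alone.

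REST pairs were lowered more often than the pairs of any other windowed class. By edgeR's quasi-likelihood test with Benjamini-Hochberg adjustment over 25710 pairs, 248 of 1517 REST pairs fell and 57 rose. Over all pairs tested, 5.49% fell and 5.67% rose, 11.2% in all. Among random pairs, 587 of 11846 fell and 308 rose, which became 162 to 176 and 174 to 183 when 1 cDNA-headed library, whichever it was, was omitted. With scaling on the median of the random elements, 160 REST pairs fell and 103 rose, against 2.1% and 8.66% of all pairs. Leaving out any 1 of the 4 cDNA-headed libraries left 145 to 150 REST pairs lower and 34 to 36 higher. Of all 25710 pairs, 500 to 530 were then lower and 961 to 983 higher. These omissions moved the count over all pairs from 2869 to 1479 (without cDNA-headed library 2) up to 1513 (without cDNA-headed library 3). Libraries 1 and 4 of that heading gave 1500 and 1489. Leaving out a plmd-headed library raised the counts, to 278 to 314 REST pairs lower and 59 to 69 higher. Over all pairs it gave 1777 to 1963 lower and 1512 to 1678 higher. At an unadjusted p under 0.05, 6913 pairs passed. The 4 plmd-headed values lay wholly below the 4 cDNA-headed values in 14.8% of all pairs and wholly above them in 7.95%.

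Over all enhancers, the median REST element lay at −0.27 relative to the median random element, over 83 elements measured beside at least 10 enhancers. Each plmd-headed library alone gave the same sign, with differences of −0.21, −0.30, −0.34 and −0.28. Of the 83 elements, 63 lay below the random median, and the middle 50% of them ran from −0.51 to −0.02. In the limma test of an element's mean over enhancers, 46 REST elements were lower and 7 were higher under both scalings, where 292 and 186 of all 1374 elements were. Under the main scaling alone the test called 66 REST elements lower and 7 higher. That count has a high background, as 55.8% of all elements were called lower and 13.5% higher, while the median scaling called 21.3% lower and 24.4% higher. Lower calls beside 5 or more enhancers were made for 23 of 83 REST elements, against 66 of all 1374.

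The window chr9:34494045-34494245 lowered output beside 11 of the 20 enhancers it was tested with and raised it beside none. Its median over enhancers was −0.77 relative to the median random element. Set against the mean of the cDNA-headed libraries, its mean log2 value over enhancers was −0.51, −1.45, −1.08 and −1.21 in plmd-headed libraries 1 to 4. The 4 cDNA-headed libraries lay between −0.03 and 0.04, so the groups did not overlap. The limma mean effect was −1.06 (SE 0.14, 4 against 4 libraries, adjusted p = 2.85e-05), and −0.83 under the median scaling (adjusted p = 0.000254). Beside single enhancers the effect ran from −2.17 with En17 to 0.25 with En04. With En17 the pair held 551, 866, 813 and 489 counts per 1000000 counts of random elements beside En17 in the plmd-headed libraries, the scale of all scaled counts below. The cDNA-headed libraries held 2777, 2835, 3162 and 3454, all higher, which makes the pair 4.49-fold lower (SE 0.23 on the log2 scale, edgeR adjusted p = 0.000213). Beside En20, a stronger enhancer, the same window was 1.69-fold lower (adjusted p = 0.00267, edgeR).

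The REST window chr19:4173112-4173312 also fell beside 11 of 20 enhancers. Its plmd-headed means over enhancers were −0.72, −0.59, −0.68 and −0.49, and the cDNA-headed values lay within −0.03 and 0.03. The limma effect was −0.62 (SE 0.05, adjusted p = 3.44e-07), and −0.39 under the median scaling. The 11 enhancers do not include En01 to En05, where the window's effects ran from −0.26 to −0.0005 and did not pass the threshold. Beside En17 it reached −1.38 (SE 0.10, edgeR adjusted p = 1.79e-05). The scaled counts of that pair were 7456, 6157, 6598 and 5575 on the plmd-headed side and 15386 to 17632 on the cDNA-headed side. This pair rested on 546 barcodes and the pair of chr9:34494045-34494245 with En17 on 71.

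Further REST windows fell beside 7 to 10 enhancers. A pair of windows on chromosome 19 that share 41 bases, chr19:4769653-4769853 and chr19:4769494-4769694, each fell beside 10 of 20, with medians of −0.71 and −0.57 relative to random. The window chr19:5356460-5356660 fell beside 10 of 19, with a median of −0.58, and chr9:17744881-17745081 beside 10 of 20, with −0.52. The window chr5:14628566-14628766 fell beside 9 of 20 (−0.75 relative to random). Lower calls beside 8 enhancers were made for chr18:1092352-1092552, of 20 (−0.51), and for chr5:16178976-16179176, of 18 (−0.55). The window chr19:3244100-3244300 fell beside 7 of 20 (−0.47). None of these 8 windows was called higher beside any enhancer.

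The lowest REST element of all was the window chr12:11653592-11653792. It lay at −1.05 relative to the median random element and fell beside 9 of 17 enhancers. Its plmd-headed means were −1.85, −1.23, −1.22 and −1.15, with the cDNA-headed libraries between −0.07 and 0.03. The first plmd-headed library was thus the lowest, and the other 3 lay close together. The limma effect was −1.36 (SE 0.13, adjusted p = 1.72e-06). The number of enhancers with a call moved between 5 and 10 as single libraries were left out. Beside En21 the pair held 248, 136, 230 and 207 scaled counts in the plmd-headed libraries against 998 to 1147, an effect of −2.39 (SE 0.28, edgeR adjusted p = 0.000414). That pair had 29 barcodes. The next lowest window by the limma mean, chr9:34984152-34984352, had a mean effect of −1.16 (SE 0.18, adjusted p = 8.30e-05) but was called beside 2 of 13 enhancers. In its plmd-headed libraries the means were −1.01, −1.0, −0.91 and −1.73. Among REST pairs past the threshold with a mean count of at least 100 in the cDNA-headed libraries, the largest decrease after that pair with En21 was that of chr19:6564523-6564723 beside En21, at −2.22 (SE 0.17, 86 barcodes, edgeR adjusted p = 2.16e-05). Its scaled counts were 525 to 647 in the plmd-headed libraries and 2525 to 2905 in the cDNA-headed ones.

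A few REST windows raised output instead. The window chr19:2169150-2169350 rose beside 16 of 20 enhancers and fell beside none, with a median 1.5 above random. Its plmd-headed means were 1.28, 1.18, 1.51 and 1.23 and the cDNA-headed values lay between −0.02 and 0.03. The limma effect was 1.30 (SE 0.07, adjusted p = 4.07e-09). Beside En03 it held 4502, 3816, 5685 and 4167 scaled counts against 842 to 1165, which is 4.30-fold higher. It did not pass beside En20 (0.25, SE 0.17, edgeR adjusted p = 0.391) or En21 (0.37, SE 0.26, adjusted p = 0.393). The window chr19:2608138-2608338 rose beside 10 of 20. Its effect ran from 2.32 with En07 to −0.31 with En20, where it did not pass (edgeR adjusted p = 0.385). The window chr18:11579005-11579205 rose beside 8 of 20, a count that ranged from 4 to 10 with single libraries left out.

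The window chr19:591579-591779 was the only REST element with at least 2 calls in each direction. It rose beside En01, En03, En04, En11 and En15 and fell beside En17 and En20. Beside En03 it held 18321, 20157, 17018 and 21280 scaled counts in the plmd-headed libraries against 12428 to 13882, an effect of 0.55 (SE 0.08, edgeR adjusted p = 0.00242). Beside En20 it held 10240, 9773, 10122 and 8755 against 11198 to 12739, an effect of −0.32 (SE 0.07, adjusted p = 0.0146, edgeR). In each of these pairs the groups of libraries did not overlap. The mean over enhancers was 0.10 (SE 0.05) and did not pass in limma (adjusted p = 0.0944). The median scaling gave 10 rises and 1 fall, and single omissions gave 2 to 8 rises and 0 to 4 falls. With single libraries left out, the adjusted p of the En20 pair rose to as much as 0.0566 and that of the En03 pair to 0.0147 (edgeR).

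Some REST windows overlap and so share sequence, and they are no independent members. Of 9 overlapping pairs of windows, 7 lay on the same side of the random median, with a median difference of 0.21, where 63 of all 83 REST elements lay below that median. Among those on opposite sides was the pair that shares 188 bases on chromosome 19, where chr19:2123805-2124005 lay at 0.18 and chr19:2123817-2124017 at −0.29 relative to random, each called lower beside 3 of 19 enhancers. The windows chr5:38921352-38921552 and chr5:38921359-38921559 share 193 bases and lay at −0.75 and −0.50. They were called lower beside 7 of 19 and 5 of 18 enhancers.

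Beside single enhancers the REST class lay below the random elements in 17 of 20 cases, En16 left out because 1 REST pair was measured there. The lowest value was −0.44 beside En18 and the highest 0.03 beside En05. Among the strong enhancers, 26 of 80 REST pairs fell beside En17, 14 of 84 beside En19, 23 of 84 beside En20 and 20 of 84 beside En21. Over pairs of all classes these falls numbered 129 of 1352, 65 of 1387, 113 of 1407 and 73 of 1393. Beside En01 to En04 there were 10 of 79, 0 of 76, 5 of 81 and 5 of 83 REST pairs lower, against 94 of 1347, 51 of 1246, 58 of 1320 and 133 of 1360 of all pairs. Beside En05 to En08 there were 5 of 62, 14 of 81, 10 of 82 and 20 of 81, against 37 of 1072, 83 of 1343, 69 of 1370 and 72 of 1371. The largest share was 29 of 84 beside En12, where 95 of 1404 of all pairs fell. Across the 20 enhancers the REST value correlated with the enhancer's level without an element at a Pearson r of −0.70 and a Spearman rho of −0.74. The same r was −0.69 for YY1, −0.61 for GFI1, −0.54 for CTCF, −0.33 for CTCF_TAD and −0.66 for positive elements, so a negative r was not limited to REST. These are descriptions over enhancers measured in the same libraries. Numbers of barcodes differ between enhancers as well, from a median of 25 beside En18, where 0 of 43 REST pairs passed, to 329 beside En20, and their part in the counts was not tested.

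Whether an element acts differently beside strong and weak enhancers was tested directly, as its mean beside En17 to En21 minus its mean beside En01 to En08. The median random element itself differed by 0.19 under the main scaling and by 0.01 under the median scaling. This shift was not subtracted before the test. In limma, 13 of 83 REST elements had a lower and 0 a higher value beside the strong set, where 4.61% and 1.17% of 1366 elements did, 5.78% in all. The median scaling gave 23 REST elements lower and 0 higher, with 11.2% and 0.439% of all elements. Relative to random, the REST median was −0.42 beside En17 to En21 and −0.11 beside En01 to En08. Leaving out any 1 of the cDNA-headed libraries 1 to 4 left 5 to 6 REST elements lower and moved the count over all elements from 79 to 32, 30, 35 and 32. Without a plmd-headed library, 10 to 18 REST elements were lower, where 56 to 76 of all 1366 elements were.

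The window chr12:11653592-11653792 had the largest REST difference of this kind. Its mean effect was −2.23 beside En17 to En21 and −0.99 beside En01 to En08, a difference of −1.24 (SE 0.18, adjusted p = 0.0053, limma). The plmd-headed libraries gave differences of −0.89, −1.64, −1.33 and −1.11 and the cDNA-headed ones −0.15 to 0.08, so they did not overlap. It was followed by chr5:7094843-7095043, with −1.49 against −0.29 (difference −1.20, SE 0.16), and by chr19:6564523-6564723, with −1.79 against −0.68 (difference −1.11, SE 0.17). The differences of chr19:5404143-5404343 and chr19:2123817-2124017 were −1.05 (SE 0.21) and −0.99 (SE 0.17), the latter with −0.04 beside the weak set. For chr19:5404143-5404343 the plmd-headed differences ran from −1.47 to −0.43. Its adjusted p in limma was 0.0207 and rose to 0.0746 without cDNA-headed library 3, so it did not pass there. Of the windows described above, chr9:34494045-34494245 differed by −0.79 (SE 0.16, limma adjusted p = 0.0203) and chr19:4173112-4173312 by −0.61 (SE 0.14, adjusted p = 0.0337, limma). For chr19:591579-591779 the means were −0.40 beside the strong and 0.39 beside the weak set, a difference of −0.79 (SE 0.16, limma adjusted p = 0.0217). These last 3 were chosen for their earlier values. They did not pass without cDNA-headed library 2 (0.0901 and 0.118 for the first and second) or 4 (0.0795 for the third), the omissions with their highest adjusted p in limma.

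YY1 elements were higher than random on the whole. Their median lay 0.18 above random over 125 elements, between 0.17 and 0.21 in the 4 plmd-headed libraries, and 36 of 125 lay below the random median. In the pair test 98 of 2362 fell (4.15%) and 215 rose (9.10%), against 5.49% and 5.67% of all pairs. Under the median scaling 47 fell (1.99%) and 333 rose (14.1%), against 2.1% and 8.66% of all pairs. In limma 28 elements were higher and 15 lower under both scalings, where 186 and 292 of all 1374 elements were. Left-out cDNA-headed libraries gave 34 to 41 pairs lower and 140 to 143 higher, against 500 to 530 and 961 to 983 of all 25710 pairs.

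The window chr9:31519111-31519311 had the highest YY1 value, a median 2.00 above random, and rose beside 18 of 20 enhancers. Its plmd-headed means were 1.85, 1.71, 1.86 and 1.88, the second the lowest, and the cDNA-headed libraries lay between −0.12 and 0.07. Beside En07 it held 10712, 9252, 10729 and 9440 scaled counts against 1126 to 1381, an effect of 2.99 (SE 0.12, edgeR adjusted p = 4.06e-07). Beside En20 and En21 its effects were 0.71 (SE 0.15, edgeR adjusted p = 0.0126) and 0.59 (SE 0.19, adjusted p = 0.0744). The window chr5:32443942-32444142 rose beside 20 of 20 enhancers with effects of 0.51 to 1.26. The window chr18:9102638-9102838 rose beside 19 of 21, with a median 1.11 above random, and chr19:4007662-4007862 beside 13 of 15, with a median 1.53 above random.

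A smaller number of YY1 windows were lowered. The windows chr19:5255065-5255265 and chr19:6794936-6795136 each fell beside 8 of 20 enhancers, with medians of −0.51 and −0.36 relative to random. The first had plmd-headed means of −0.85, −0.87, −0.90 and −0.54 and a limma effect of −0.79 (SE 0.08, adjusted p = 1.88e-06). For the second, the count of enhancers ranged from 2 to 9 with single libraries left out, and the median scaling gave 4. Among overlapping YY1 windows, 25 of 27 pairs lay on the same side of the random median, where 36 of all 125 YY1 elements lay below it. Most of these pairs are tiles of a single stretch of chromosome 18, from chr18:712282-712482 to chr18:712408-712608, which lay 0.13 to 0.46 above random. Elements that name several of these tiles at once are not in that count. The element naming chr18:712282-712482 or chr18:712300-712500 lay at 0.27, and that which also names chr18:712318-712518 at −0.06, relative to random.

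GFI1 elements lay 0.08 above random in the median (255 elements, 0.08 to 0.14 in single plmd-headed libraries). Of 4813 pairs tested, 161 fell (3.35%) and 333 rose (6.92%), against 5.49% and 5.67% of all pairs. Under the median scaling 46 fell (0.956%) and 521 rose (10.8%), against 2.1% and 8.66% of all pairs. Lower calls dropped to between 42 and 50 when a cDNA-headed library was left out, and higher calls to between 218 and 227. Over all 25710 pairs, 500 to 530 were then lower and 961 to 983 higher. In limma 21 elements were lower and 47 higher under both scalings, where 292 and 186 of all 1374 elements were. The largest GFI1 value was a rise: chr6:14877407-14877607 was higher beside 20 of 21 enhancers, with plmd-headed means of 2.21, 2.06, 2.00 and 1.99 and cDNA-headed values between −0.07 and 0.03. Its limma effect was 2.06 (SE 0.05, adjusted p = 2.26e-12). Beside En01 it held 25516 to 34110 scaled counts against 3317 to 3731, an effect of 3.04 (SE 0.10). Beside En20 the effect was 0.74 (SE 0.10). The windows chr4:86655777-86655977 and chr3:154950474-154950674 each rose beside 18 enhancers, of 20 and 21.

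Among GFI1 elements called lower, chr17:38482554-38482754 fell beside 10 of 20 enhancers and chr20:37624414-37624614 beside 6 of 20. The first had plmd-headed means of −0.56, −0.62, −0.68 and −0.50 and a limma effect of −0.59 (SE 0.05, adjusted p = 5.36e-07), while the median scaling gave 6 lower calls and single omissions 6 to 12. The window chr12:120680206-120680406 had the lowest GFI1 mean, −0.90 (SE 0.24, limma adjusted p = 0.00435), with 0 of 13 pairs called and plmd-headed values from −1.50 to −0.21. With at least 2 calls in each direction there were 2 GFI1 windows. The window chr12:92797646-92797846 fell beside 4 and rose beside 3 of 20 enhancers, and chr20:22788342-22788542 fell beside 3 and rose beside 2 of 21. Their limma means did not pass (−0.01, SE 0.06, adjusted p = 0.855, and −0.12, SE 0.06, adjusted p = 0.0881). Under the median scaling the first of these means was 0.21 and passed (limma adjusted p = 0.0126).

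CTCF elements did not stand apart from random in the median, at 0.03 (80 elements), a value that turned to −0.0046 without plmd-headed library 3. Of 1522 pairs 82 fell (5.39%) and 57 rose (3.75%), against 5.49% and 5.67% of all pairs. Under the median scaling 34 fell (2.23%) and 97 rose (6.37%), against 2.1% and 8.66% of all pairs. Without a cDNA-headed library 32 to 37 fell and 25 to 29 rose, against 500 to 530 and 961 to 983 of all 25710 pairs. The window chr21:34733626-34733826 fell beside 10 of 20 enhancers, a median of −0.59 relative to random. Its plmd-headed means were −1.09, −0.92, −0.74 and −0.84 (limma effect −0.90, SE 0.07, adjusted p = 2.62e-07). The windows chr14:64977872-64978072 and chr19:13973143-13973343 fell beside 7 of 20 each, and under the median scaling beside 4 and 1. Single omissions left 4 to 9 and 2 to 8. On the higher side, chr22:30279428-30279628 rose beside 10 of 15 enhancers with plmd-headed means of 0.55, 0.53, 0.49 and 0.51 (limma effect 0.52, SE 0.05, adjusted p = 3.58e-06). The window chr1:249200614-249200814 rose beside 7 of 20, a count of 3 to 7 with single libraries left out.

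The CTCF_TAD elements were, after REST, the class with the lowest median, −0.13 relative to random over 125 elements. The 4 plmd-headed libraries gave −0.18, −0.17, −0.15 and −0.13, and 91 of 125 elements lay below the random median. Of 2306 pairs 214 fell (9.28%) and 39 rose (1.69%), against 5.49% and 5.67% of all pairs. Under the median scaling 84 fell (3.64%) and 58 rose (2.52%), against 2.1% and 8.66% of all pairs. Without a cDNA-headed library 71 to 80 fell and 22 to 25 rose, against 500 to 530 and 961 to 983 of all 25710 pairs. In limma 49 were lower and 3 higher under both scalings, where 292 and 186 of all 1374 elements were. The windows chr3:184258964-184259164, chr17:2256420-2256620 and chrX:129213853-129214053 fell beside 9, 8 and 7 of 20 enhancers. Their limma effects were −0.69 (SE 0.07), −0.86 (SE 0.07) and −0.67 (SE 0.06). Leaving out single libraries moved these counts to between 4 and 12, 3 and 10, and 2 and 9. A single CTCF_TAD window rose widely, chr1:168148083-168148283, beside 17 of 21 enhancers with a limma effect of 1.07 (SE 0.07, adjusted p = 2.55e-08). The window chr7:44025562-44025762 was called lower beside 2 and higher beside 2 of 20. Its limma mean of −0.03 became 0.20 under the median scaling (adjusted p = 0.0162, limma).

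The positive elements were the highest class. The median of 66 elements lay 0.67 above random, between 0.56 and 0.67 in single plmd-headed libraries, and 9 of the 66 lay below the random median. Of 1270 pairs 444 rose (35.0%) and 13 fell (1.02%), against 5.67% and 5.49% of all pairs. Under the median scaling 520 rose (40.9%) and 3 fell (0.236%), against 8.66% and 2.1% of all pairs. Without any 1 of the cDNA-headed libraries 339 to 351 rose and 3 to 4 fell. Of all 25710 pairs, 961 to 983 then rose and 500 to 530 fell. The window chr19:49378601-49378801 rose beside 20 of 21 enhancers, with plmd-headed means of 2.20, 2.18, 2.34 and 2.24 and cDNA-headed values between −0.07 and 0.05. The limma effect was 2.24 (SE 0.05, adjusted p = 6.21e-13). Beside En03 the effect was 3.26 (SE 0.11), and beside En21 it was 0.92 (SE 0.18). The windows chr12:6976585-6976785 and chr19:9434772-9434972 also rose beside 20 of 21. Pairs of positive elements had a median of 119 barcodes and random pairs 77. The part of the barcode number in the higher count was not tested.

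Positive elements differed between the enhancer sets more often than any other class. In limma 18 of 66 were lower beside En17 to En21 than beside En01 to En08 and 0 were higher. Of all 1366 elements, 4.61% were lower and 1.17% higher. Under the median scaling 30 positive elements were lower and 0 higher, against 11.2% and 0.439% of all elements. Without a cDNA-headed library 13 to 14 were lower, while the count over all elements fell from 79 to between 30 and 35. The median positive element lay 0.23 above random beside the strong set and 0.85 above beside the weak set. The 5 largest decreases of all classes were positive elements. The window chr6:73978186-73978386 had −0.92 beside the strong and 0.69 beside the weak set, a difference of −1.61 (SE 0.27, limma adjusted p = 0.0085). Differences of −1.53 (SE 0.16), −1.39 (SE 0.14), −1.37 (SE 0.13) and −1.28 (SE 0.16) followed for chr17:43806963-43807163, chr12:6976585-6976785, chr10:102295529-102295729 and chr17:41150364-41150564. In the opposite direction stood the CTCF window chr19:44270703-44270903 (1.49, SE 0.29) and random_99, random_545, random_328 and random_688 (1.17, 1.02, 0.86 and 0.84). None of these 5 passed without 1 cDNA-headed library, the highest adjusted p in limma being 0.124 to 0.171. The median random element differed by 0.19 in the same direction. Under the median scaling random_328 and random_688 did not pass (limma adjusted p = 0.0698 and 0.116), while the CTCF window, random_99 and random_545 did.

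The singly named elements are given one by one, as fitted beside each enhancer. Smirnov_C6a fell beside 6 of 20 enhancers and rose beside none. The 6 were En03 (−0.68), En06 (−0.85), En07 (−0.98), En17 (−0.62), En19 (−0.91) and En20 (−0.93), with SE between 0.11 and 0.21. The En20 pair had the lowest adjusted p (0.000537, edgeR), and 3 of the 6 passed under the median scaling (En07, En19 and En20). Its mean over enhancers was −0.43 (SE 0.05, limma adjusted p = 1.08e-05), with plmd-headed values of −0.38, −0.43, −0.50 and −0.43. The median random element lay at −0.28 in the same fit. Under the median scaling the mean of Smirnov_C6a was −0.21 (limma adjusted p = 0.00596). With single libraries left out, 3 to 7 pairs fell. Smirnov_C8 fell beside En01 (−0.72, SE 0.17) and En04 (−0.79, SE 0.18) and rose beside En17 (0.68, SE 0.17, edgeR adjusted p = 0.0299). The rise passed under the median scaling and the falls did not, and single omissions left 0 to 3 falls and 0 to 1 rise. Smirnov_C3 was not called beside any of 16 enhancers, with effects from −0.85 to 0.55 and 16 to 148 barcodes per pair. Its mean was −0.23 (SE 0.10) and did not pass (limma adjusted p = 0.057).

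The insulator cHS4 rose beside En09 (0.66, SE 0.07, edgeR adjusted p = 0.000332), En12 (0.34, SE 0.07) and En20 (0.34, SE 0.07), and fell beside En05 (−0.55, SE 0.12, adjusted p = 0.0198). It had the most barcodes of the singly named elements, a median of 682 per pair. Beside the other 14 enhancers its effect did not pass. Single omissions left 2 to 4 rises and 0 to 2 falls. Under the median scaling it rose beside 6 of 18 and fell beside none. Its mean over enhancers was 0.11 (SE 0.05, limma adjusted p = 0.0862) and 0.33 under the median scaling (adjusted p = 0.000206), so the call of a rise rests on the scaling.

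Random elements, the control, varied among themselves. Between enhancers the SD of the random pairs' effects ran from 0.33 beside En20 to 0.73 beside En16. The elements random_505 and random_665 fell beside 10 enhancers each, of 20 and 21, with 4 to 13 and 5 to 12 after single omissions, and random_760 rose beside 19 of 20. The last had a limma effect of 1.10 (SE 0.06, adjusted p = 5.91e-09) and plmd-headed means of 1.02, 1.12, 1.17 and 1.08. The largest fall of a random pair was that of random_530 beside En17, at −2.62 (SE 0.46, edgeR adjusted p = 0.00522), with 10 barcodes. Its scaled counts were 57, 104, 63 and 35 in the plmd-headed libraries against 342 to 468. Lower calls beside 5 or more enhancers were made for 17 of 636 random elements and higher ones for 22. For REST these numbers were 23 and 7 of 83.

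Calls depended on the number of barcodes. Of 3830 pairs with 10 to 24 barcodes, 107 fell and 5 rose, 2.92% in all, and of 5730 pairs with 200 or more, 356 fell and 951 rose, 22.8%. The median SD between the plmd-headed libraries was 0.98 in the first group and 0.23 in the second, and that between the cDNA-headed libraries was 0.34 and 0.10. Pairs with few barcodes thus varied more between libraries and were seldom called higher. Pairs called per enhancer ran from 1.11% beside En16 to 18.9% beside En10. The spread of effects was smallest beside En20, with an SD of 0.36, and among enhancers with over 900 pairs largest beside En05, with 0.76.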

How the data were processed

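Barcode reads of the reporter messenger RNA and of the plasmid pool were counted in 4 libraries each, and the series' design text gives 4 biological replicates. The authors deposited raw counts summed over the barcodes of each pair, with a number of barcodes and a log2 fold change. The tool, aligner and build they used are not named in the labels or file headers at hand. To check the direction, and for nothing else, the deposited mean of the plmd-headed columns and the log2 values were used. Pairs with a mean of at least 20 counts in the cDNA-headed libraries were tested (25710, 2 left out), with offsets from the summed counts of the random elements beside the same enhancer. The test was edgeR's quasi-likelihood test (edgeR 4.0.16, R 4.3.3), with Benjamini-Hochberg adjustment and a threshold of 0.05. The SE printed for a pair is the absolute effect divided by the square root of that test's F statistic. For elements over enhancers, log2 ratios to the random sum with a pseudocount of 0.5 were averaged within a library, for elements beside at least 10 enhancers, and fitted with limma 3.58.1. The enhancer sets needed at least 3 enhancers each. Star lines, 0.964% to 1.06% of counts, were left out. Scripts were tested on simulated data, drawn with the same spread in the plmd-headed and cDNA-headed libraries and with no change in the other pairs. In the data the plmd-headed libraries varied more, so the counts below do not give the power reached in them. The pair test called 13 and 15 of 50 log2 changes of −1 and 1, and 38 and 47 of 50 changes of −2 and 2. The set test called 6 and 3 of 48 changes of −0.5 and 0.5, and 43 of 50 and 41 of 47 changes of −1 and 1. The element test was simulated under the median scaling only. Window coordinates were checked against hg38 by motif search (Python 3.11.15, pysam 0.24.0), and as they do not follow it, no sequence or gene was read for a window. Library numbers did not pair the samples, with correlations of 0.0035 to 0.010 between same-numbered libraries.

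Named pairs were the 3 largest decreases and increases of each class past the threshold, with a mean of at least 100 counts and the same sign in all 4 plmd-headed libraries. Named elements were the 3 called lower and the 3 called higher beside the most enhancers and the 2 lowest and 2 highest means, and for the sets the 5 largest differences in each direction. Only some of them appear in the text, and the further REST windows named there were chosen after their values were seen. The members and lists were chosen with earlier results of these data known. Alternatives were other scalings, count minimums, a pseudocount of 5, DESeq2 1.42.0, a replicate block, each library left out, and the opposite direction.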

Additional observations from a re-analysis of the deposited data

Results flagged for a closer look

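In 17 of 258 groups of 4 libraries, 1 library stood apart from the other 3 by Dixon's test, where chance gives about 1 in 20. Among mean log2 values over enhancers in the plmd-headed libraries, these were −1.85 for REST chr12:11653592-11653792 (the others −1.23 to −1.15) and −1.73 for REST chr9:34984152-34984352 (−1.01 to −0.91). For YY1 they were −0.54 for chr19:5255065-5255265 (−0.90 to −0.85) and 1.71 for chr9:31519111-31519311 (1.85 to 1.88). For CTCF they were −0.50 for chr19:13973143-13973343 (−0.42 to −0.41) and 0.13 for chr1:249200614-249200814 (0.25 to 0.26), and for GFI1 0.17 for chr12:92797646-92797846 (−0.10 to −0.06). Among the cDNA-headed libraries they were −0.069 for REST chr12:11653592-11653792, −0.087 for REST chr19:591579-591779, 0.068 for CTCF chr14:64977872-64978072, 0.021 for CTCF_TAD chrX:129213853-129214053 and 0.072 for GFI1 chr20:22788342-22788542. For the difference between enhancer sets it was 0.19 for REST chr5:7094843-7095043 in a cDNA-headed library (the others −0.07 to −0.05).

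Among single pairs, in counts scaled on the random elements, CTCF chr3:196255707-196255907 beside En12 held 238 in a cDNA-headed library (the others 172 to 178). In a plmd-headed library, CTCF_TAD chr7:37238549-37238749 beside En17 held 142 (60.8 to 69.1), positive chr8:71570889-71571089 beside En17 held 1162 (354 to 422), and random_302 beside En03 held 327 (74.9 to 95.1).

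Effects beside En17 to En21 and beside En01 to En08 differed in the limma test of the difference itself for 18 elements named here. This holds under the main scaling, where the median random element differed by 0.19. The differences were −1.61, −1.53, −1.39, −1.37 and −1.28 for the positive windows chr6:73978186-73978386, chr17:43806963-43807163, chr12:6976585-6976785, chr10:102295529-102295729 and chr17:41150364-41150564. They were 1.49 for CTCF chr19:44270703-44270903 and 1.17, 1.02, 0.86 and 0.84 for random_99, random_545, random_328 and random_688. For the REST windows chr12:11653592-11653792, chr5:7094843-7095043, chr19:6564523-6564723, chr19:5404143-5404343 and chr19:2123817-2124017 they were −1.24, −1.20, −1.11, −1.05 and −0.99. For REST chr9:34494045-34494245, chr19:4173112-4173312 and chr19:591579-591779 they were −0.79, −0.61 and −0.79.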

How the results depend on the processing

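Reading the columns as headed turns every sign, so that the class medians relative to random become 0.27 for REST, −0.18 for YY1, −0.083 for GFI1, −0.027 for CTCF, 0.13 for CTCF_TAD and −0.67 for positive elements. The median scaling called 627 in place of 953 elements over enhancers and 159 in place of 79 between enhancer sets, and moved the CTCF median to 0.072. TMM over all pairs, which does not subtract the enhancer's own activity, called 11646 in place of 2869 pairs, with medians of 0.21 for YY1, 0.12 for GFI1, 0.090 for CTCF and −0.064 for CTCF_TAD. TMM within each enhancer, added after seeing the data, gave 0.051 for CTCF. A replicate block, whose numbers do not pair the libraries, called 1671 pairs and 21 set differences, with medians of 0.0031 for CTCF and 0.62 for positive elements. DESeq2 called 4282 pairs. With each library left out, 1479 to 3641 pairs, 847 to 979 elements and 30 to 103 set differences were called. The medians then ran from −0.30 to −0.22 for REST, 0.16 to 0.21 for YY1, 0.072 to 0.11 for GFI1, −0.0046 to 0.064 for CTCF, −0.15 to −0.0996 for CTCF_TAD and 0.61 to 0.71 for positive elements. The CTCF sign turned without plmd-headed library 3. Under the median scaling the means of CTCF_TAD chr7:44025562-44025762 and GFI1 chr12:92797646-92797846 turned to 0.20 and 0.21. Of 714 alternative values for 42 named pairs, 76 no longer passed, and of 233 for 18 set differences, 50. The causes were not tested. Barcodes of the named pairs ran from 10 (random_530 beside En17) to 1472 (positive chr10:102295529-102295729 beside En01), and pairs with few barcodes varied more between libraries.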
